A study of Mus musculus with 36 samples.

Results

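Circadian clock genes were followed through brown adipocyte differentiation in 10 members: the transcriptional activators Arntl (Bmal1) and Clock, the repressors Per2, Per3, Cry1 and Cry2, the REV-ERB receptors Nr1d1 and Nr1d2, and the PAR bZIP factors Dbp and Tef. They were picked as named genes of the clock among the 55536 genes counted in each library, and all 10 were among the 16723 genes that passed the filter on low counts. The data were RNA sequencing counts from 36 libraries of a mouse brown pre-adipocyte line. In it Rxra, encoding the nuclear receptor RXRα, had been knocked out by frameshift mutations made with CRISPR/Cas9. All cells carried this knockout and a retroviral Rxra construct, either wild type (RxraWT) or with serine 22 changed to alanine (RxraSA). Both constructs were used in each of 2 Rxra-/- clones, numbered 48 and 66. Each clone and genotype was sampled at days 0, 2 and 6 of differentiation with 3 replicates, so that a day held 12 libraries and a genotype on a day held 6. All libraries of clone 48 were in one library pool and those of clone 66 in the other, so clone and pool cannot be told apart, and each clone is a single cell line. The differentiation medium held insulin and triiodothyronine throughout and, for the first 2 days, also dexamethasone, isobutylmethylxanthine and indomethacin. The time of day of harvest is not given in the sources used here, and a day of differentiation is not a phase of the clock.

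The mammalian clock is a feedback loop of transcription. ARNTL and CLOCK bind E-box sequences together and activate the Per and Cry genes, whose proteins then repress them, while REV-ERB receptors repress Arntl in a second loop and ROR receptors activate it. DBP and TEF bind D-box sequences and carry the rhythm to output genes, and in cultured cells glucocorticoids, cyclic AMP and fresh serum are known to reset the loop.

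Total counts lay between 11351078 and 24349263 per library (median 18338726), and Rxra itself had 92.6 to 712 CPM (counts scaled to library size by TMM) over the 36 libraries, with overlapping ranges of RxraWT and RxraSA on each day. Of 10 brown adipocyte markers, 7 could be tested and all 7 were higher at day 2 and at day 6 than at day 0. Cidea, 1 of these 7, stayed low, at 0.161 to 1.66 CPM at day 6. Plin1, the lipid droplet coat protein, went from at most 0.407 CPM at day 0 to between 450 and 775 CPM at day 6. The thermogenic markers Ucp1, Prdm16 and Dio2 were near 0 throughout, with no more than 5, 21 and 20 counts in any library. The pre-adipocyte or fibroblast markers Pdgfra, Pdgfrb, Col1a1 and Ly6a were lower at days 2 and 6 than at day 0. From day 2 to day 6 Col1a1 rose 5.72-fold and Pdgfrb 1.96-fold, while Pdgfra fell 1.41-fold and Ly6a 2.07-fold. Dlk1, another such marker, had at most 1 count in any library. Of the macrophage, endothelial and muscle markers, Ptprc, Adgre1, Cdh5 and Kdr had at most 1 count in any library and Myod1 had 0, while Csf1r, Tek, Myog and Ckm had at most 20, 7, 4 and 3 counts. Cd68 was the macrophage marker above this, at 2.43 to 11.3 CPM, and Pecam1 the endothelial one, at up to 0.818 CPM. The muscle marker Actn3 was lower at days 2 and 6 than at day 0, by -4.12 and -4.41 on the log2 scale. The part of other cells in the results was not tested.

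The members differed widely in level. Per kilobase of exon, Tef had the highest mean level at day 0, at 20.3 ± 1.47 CPM per kb (SD, n = 12), followed by Nr1d2 at 15.5 ± 3.16 and Clock at 9.82 ± 0.868. Cry2, Per2, Arntl and Nr1d1 formed the lower end at day 0, between 1.80 and 1.502 CPM per kb, and neighbours in this order did not differ beyond their spread. At day 2 the order by mean level per kb was led by Clock (16.5 ± 3.79) and Cry1 (15.6 ± 3.77), whose ranges overlapped, and Dbp had dropped from the fourth to the eighth place. At day 6 Tef again led with 25.3 ± 3.596 CPM per kb. Nr1d1 was last on every day, with 32 to 161 counts per library, so its values carried the largest counting error of the members.

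Between days 0 and 2, 8 of the 10 members differed (edgeR's quasi-likelihood test, Benjamini-Hochberg adjusted p under 0.05), 4 higher and 4 lower, where 73.3% of all genes tested differed, 35.8% higher and 37.5% lower. Between days 0 and 6, 8 members differed, 7 higher and 1 lower, against 68.3% of all genes (32.9% higher, 35.4% lower). Between days 2 and 6, 7 members differed, 6 higher and 1 lower, against 62% of all genes (31.9% higher, 30.1% lower). The share of members called was thus close to the background in each comparison. The median absolute log2 difference of the members was 0.75, 0.46 and 0.50 in these 3 comparisons, beside 0.61, 0.50 and 0.43 over all genes tested. The 3 comparisons share libraries, and their values are given side by side. In bulk RNA, a change in the share of differentiated cells cannot be told apart from a change in RNA per cell.

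**Figure D1:**
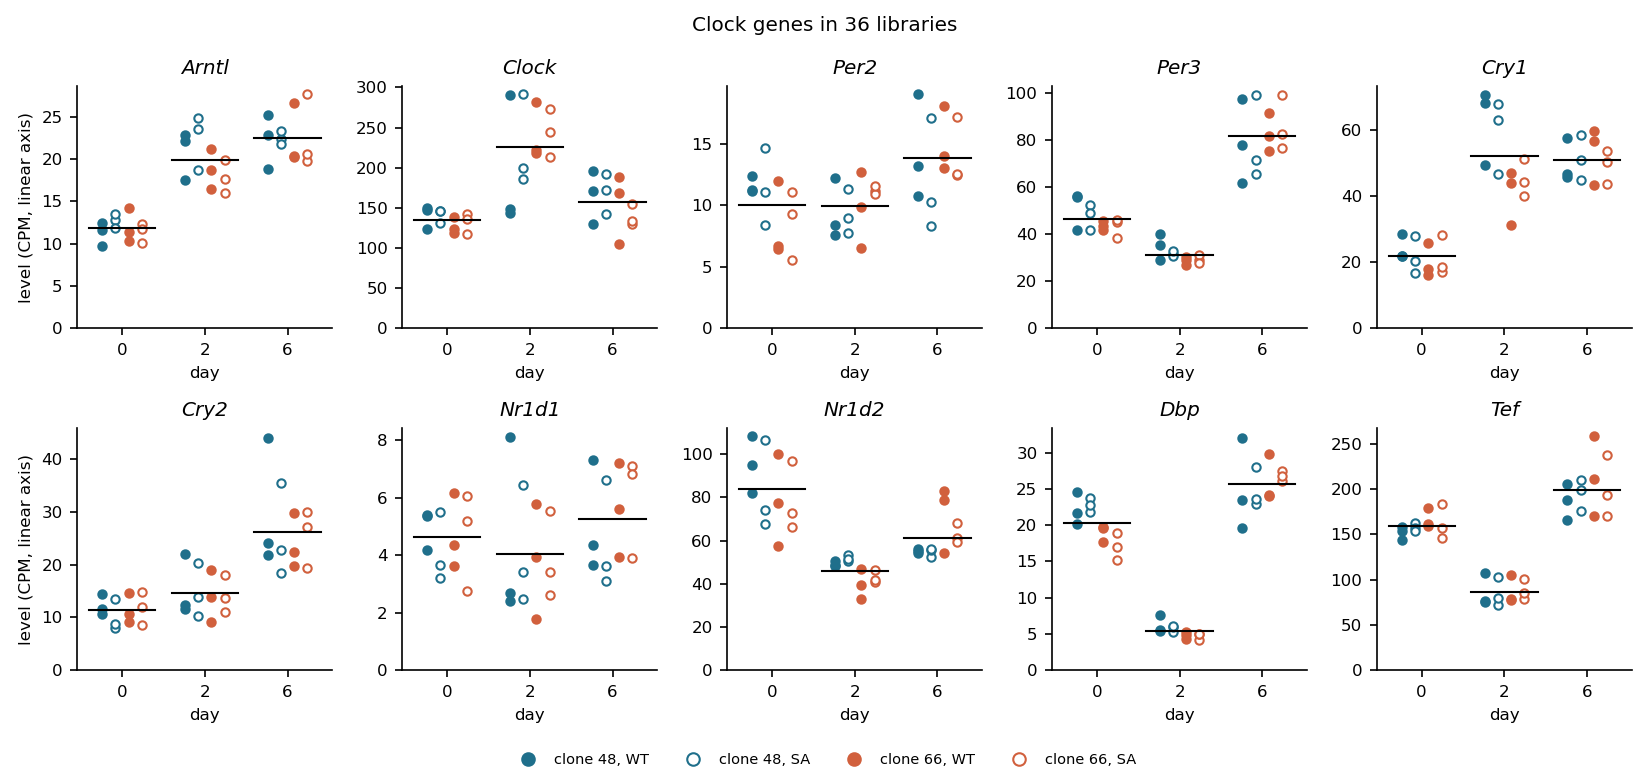
Level of each clock gene (CPM, linear axis from 0) in the 36 libraries by day of differentiation. Points are libraries (filled, RxraWT; open, RxraSA; colour, clone) and lines are means of 12 libraries. Every day 2 library lies below those of days 0 and 6 for Dbp and Tef and above those of day 0 for Arntl and Cry1, and the ranges of filled and open points overlap.

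Of the activators, Arntl had 9.75 to 14.2 CPM at day 0 (median 11.8), 15.9 to 24.9 at day 2 (median 19.3) and 18.9 to 27.8 at day 6 (median 22.1). No library of day 2 or day 6 overlapped with day 0. Arntl was 0.75 ± 0.083 higher at day 2 on the log2 scale (SE, 1.68-fold, adjusted p = 5.69e-10) and 0.93 ± 0.083 higher at day 6 (1.90-fold, adjusted p = 4.41e-12). From day 2 to day 6 its difference of 0.18 did not pass the test (adjusted p = 0.0595), and it passed under several alternatives given in the closing section. Clock had 117 to 150 CPM at day 0 (median 137), 143 to 292 at day 2 (median 220) and 105 to 196 at day 6 (median 162). It was transiently higher, by 0.75 ± 0.11 at day 2 (adjusted p = 2.96e-07), and fell by 0.53 from day 2 to day 6 (adjusted p = 9.9e-05), while day 6 and day 0 differed by 0.22 (adjusted p = 0.0783). Clock libraries overlapped between all 3 days. At day 2 replicate 1 was the highest in each clone and genotype.

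Among the repressors, Cry1 had the largest rise from day 0, from 16.0 to 28.4 CPM at day 0 (median 21.1) to between 31.4 and 70.7 at day 2 (median 48.3) and between 43.4 and 59.9 at day 6 (median 50.7). Neither later day overlapped with day 0. Its log2 difference from day 0 was 1.25 ± 0.11 at day 2 (2.37-fold, adjusted p = 8.38e-12) and 1.24 ± 0.11 at day 6 (adjusted p = 1.19e-11), with a difference of -0.01 between the later days (adjusted p = 0.943). Cry2 had 8.02 to 14.9 CPM at day 0 (median 11.1), 9.18 to 22.0 at day 2 (median 13.7) and 18.3 to 44.1 at day 6 (median 23.5). The 12 libraries of day 6 were all above those of day 0, and the rise of 1.20 ± 0.16 on the log2 scale passed the test (2.29-fold, adjusted p = 2.94e-08). The difference of Cry2 between days 0 and 2, 0.35 ± 0.16, passed narrowly (adjusted p = 0.0435). Without any 1 of 12 libraries it did not pass (adjusted p from 0.0525 to 0.11), namely replicates 1 and 2 of RxraSA and 1 and 3 of RxraWT of clone 48 at day 0, replicate 3 of each genotype and clone at day 2, and replicates 1 and 3 of RxraSA and 1 and 2 of RxraWT of clone 66 at day 0.

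Per3 and Per2 took another course than the Cry genes. Per3 had 38.1 to 56.4 CPM at day 0 (median 45.3), 26.8 to 39.9 at day 2 (median 30.3) and 61.5 to 99.3 at day 6 (median 79.7). Day 6 lay above both other days in every library. Per3 fell by 0.58 at day 2 (SE 0.081, adjusted p = 9.72e-08) and was 1.40 ± 0.082 higher at day 6 than at day 2 (2.64-fold, adjusted p = 1.67e-16). Per2 had 5.55 to 14.7 CPM at day 0 (median 11.1), 6.55 to 12.8 at day 2 (median 10.4) and 8.30 to 19.1 at day 6 (median 13.1), so its days overlapped. Its difference between days 0 and 2 was -0.01 ± 0.15 (adjusted p = 0.968), with an interval from -0.31 to 0.30. Per2 rose by 0.48 ± 0.15 from day 2 to day 6 (adjusted p = 0.00646).

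Of the REV-ERB receptors, Nr1d2 had 57.7 to 108 CPM at day 0 (median 79.7), 32.9 to 53.5 at day 2 (median 47.7) and 52.3 to 83.0 at day 6 (median 56.1). All 12 libraries of day 2 lay below day 0. Nr1d2 fell by 0.87 at day 2 (SE 0.10, 1.82-fold, adjusted p = 2.18e-09), rose by 0.42 ± 0.10 from day 2 to day 6 (adjusted p = 5.49e-04) and was the only member lower at day 6 than at day 0, by -0.45 (adjusted p = 2.00e-04). Nr1d1 had 2.75 to 6.18 CPM at day 0 (median 4.76), 1.79 to 8.12 at day 2 (median 3.40) and 3.11 to 7.32 at day 6 (median 4.998). It passed the test between no pair of days, with log2 differences of -0.19 ± 0.21, 0.19 ± 0.21 and 0.38 ± 0.21. The intervals reached from -0.62 to 0.25, from -0.24 to 0.62 and from -0.06 to 0.81. With the replicate number as a block, Nr1d1 passed between days 2 and 6 (0.43, adjusted p = 0.00507). The exons of Nr1d1 share 263 bases (8.55%) with those of Thra on the other strand, and read pairs that fall in both genes were not counted.

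Of the PAR bZIP factors, Dbp had the largest fold change of the members. Its level was 15.2 to 24.6 CPM at day 0 (median 19.9), 4.12 to 7.60 at day 2 (median 5.29) and 19.6 to 32.0 at day 6 (median 25.1). Every library of day 2 was below every library of days 0 and 6. Dbp fell by 1.92 at day 2 (SE 0.088, 3.78-fold, adjusted p = 7.00e-20), rose by 2.27 ± 0.089 from day 2 to day 6 (4.83-fold, adjusted p = 2.90e-21) and was 0.36 ± 0.083 higher at day 6 than at day 0 (adjusted p = 3.24e-04). Tef had 144 to 184 CPM at day 0 (median 158), 71.6 to 107 at day 2 (median 79.2) and 166 to 258 at day 6 (median 196). Its day 2 libraries were also below all others, with a fall of 0.88 (SE 0.078, adjusted p = 3.00e-12) and a rise of 1.20 ± 0.078 (2.29-fold, adjusted p = 2.91e-15). Dbp exons share 539 bases (18%) with the antisense gene Sphk2, which had a median of 425 counts, and reads there could not be assigned to Dbp.

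Libraries of 2 days did not overlap for 5 members between days 0 and 2 (27.7% of all genes), for 4 between days 0 and 6 (23.2%) and for 3 between days 2 and 6 (17.1%). With scaling by library size alone the median of all genes was -0.27 for day 2 and -0.22 for day 6, each against day 0, and the share of higher genes among all calls went from 48.9% to 33.6% and from 48.2% to 34.9%. On that scale 5 members were called between days 0 and 6, as Per2, Dbp and Tef no longer passed, and Cry2 no longer passed between days 0 and 2.

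**Figure D2:**
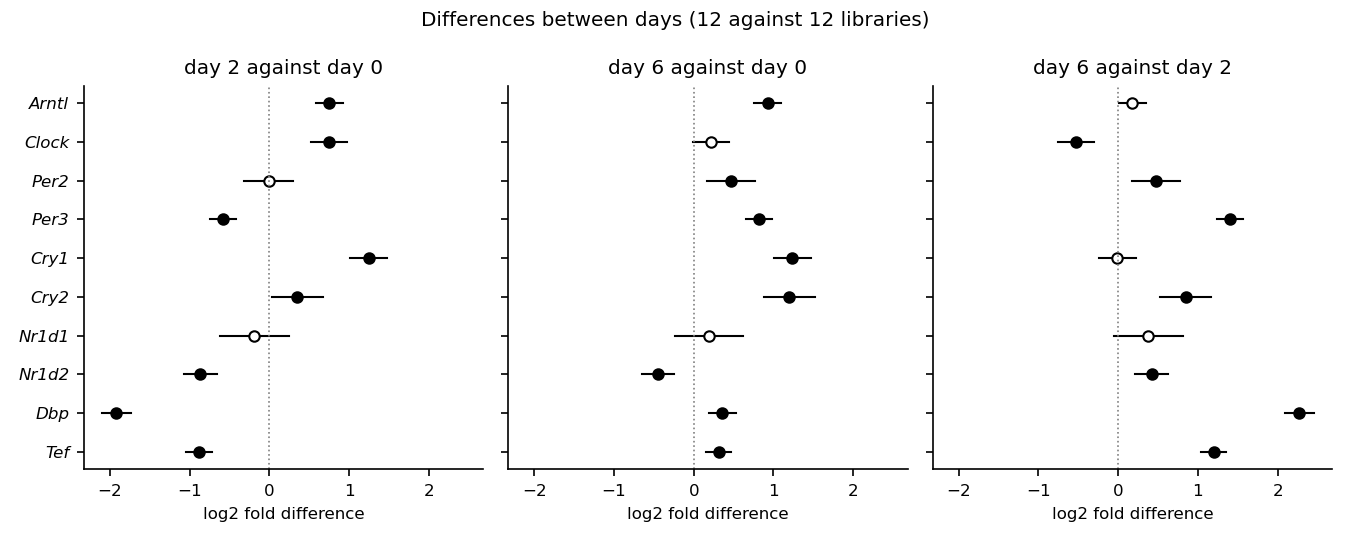
Log2 fold difference of each clock gene between days (horizontal axis), from edgeR's quasi-likelihood fit of 36 libraries. Points are estimates, bars 95% intervals, and filled points have an adjusted p under 0.05. Dbp has the lowest value at day 2 against day 0 (-1.92) and the highest at day 6 against day 2 (2.27), and Nr1d1 is open in all 3 panels.

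Of the 10 members, 9 had a promoter in the RefSeq table used here (GRCm38.p6), in 13 windows of 250 bases before a start of transcription. The E-box letters CACGTG occurred in windows of Cry1 and Tef (6.02% of all 32851 windows in the table) and the variant CACGTT, on either strand, in those of Cry1, Cry2 and Nr1d1 (3.85%). The D-box letters TTATGTAA occurred in the Per3 window alone, at 2 positions (0.819% of all windows), and TTACGTAA in none (0.113%). Neither TAGGTCA (2.23%) nor TGGGTCA (3.24%), the core of REV-ERB and ROR elements, was found. Shown are the windows of Cry1 (chr10:85185055-85185304, minus strand), which rose at day 2, of Per3 (chr4:151044666-151044915, minus strand) and Tef (chr15:81802423-81802672, plus strand), which fell, and of Nr1d1 (chr11:98775378-98775627, minus strand), which varied most between replicates. Capitals mark the matches, and a match is a description of the letters only.
Cry1: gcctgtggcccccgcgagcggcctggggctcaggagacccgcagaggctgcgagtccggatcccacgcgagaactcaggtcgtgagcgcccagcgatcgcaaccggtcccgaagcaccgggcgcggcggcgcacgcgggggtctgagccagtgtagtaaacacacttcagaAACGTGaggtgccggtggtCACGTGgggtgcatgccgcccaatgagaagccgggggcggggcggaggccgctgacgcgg
Per3: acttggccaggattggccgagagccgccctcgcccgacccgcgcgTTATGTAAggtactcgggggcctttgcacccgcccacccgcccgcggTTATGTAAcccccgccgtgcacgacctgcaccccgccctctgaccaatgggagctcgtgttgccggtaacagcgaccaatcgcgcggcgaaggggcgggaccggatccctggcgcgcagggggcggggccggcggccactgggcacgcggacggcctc
Tef: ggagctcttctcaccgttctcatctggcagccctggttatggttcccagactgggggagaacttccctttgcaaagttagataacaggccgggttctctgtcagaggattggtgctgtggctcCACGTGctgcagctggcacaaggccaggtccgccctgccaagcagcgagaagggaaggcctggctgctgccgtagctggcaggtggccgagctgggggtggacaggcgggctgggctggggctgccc
Nr1d1: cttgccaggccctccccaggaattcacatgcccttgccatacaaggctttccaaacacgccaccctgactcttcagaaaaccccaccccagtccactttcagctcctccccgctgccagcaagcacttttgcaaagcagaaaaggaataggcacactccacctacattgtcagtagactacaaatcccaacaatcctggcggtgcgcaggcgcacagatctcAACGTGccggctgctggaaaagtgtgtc
In the Cry1 window the CACGTG match lay 60 to 55 bases before the start and the variant 79 to 74 bases before it. The D-box letters of Per3 lay 205 to 198 and 158 to 151 bases before its start, and the E-box letters of Tef 127 to 122 bases before.

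Among 22 other genes of the clock pathway, 21 could be tested, and Npas2, a relative of Clock, could not, with at most 4 counts in any library. Between days 0 and 2, 11 were higher and 7 lower (73.3% of all genes were called). Between days 0 and 6, 13 were higher and 5 lower (68.3%), and between days 2 and 6, 10 were higher and 6 lower (62%). Per1, the third Per gene, had 5.16 to 11.5 CPM at day 0 and 12.3 to 34.0 CPM at day 2, a rise of 1.46 ± 0.20 (2.75-fold, adjusted p = 6.61e-08), while Per3 fell over the same days. Per1 then fell by 0.69 to day 6 (adjusted p = 0.00266), opposite to Per2 and Per3. Arntl2, a relative of Arntl, went down where Arntl went up, by -1.11 ± 0.076 at day 2 (adjusted p = 4.22e-15).

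Rorb, a nuclear receptor of the pathway list, rose 1.53-fold at day 2 and fell 4.05-fold from day 2 to day 6. Nfil3, a repressor at D-boxes, was 6.35-fold higher at day 2 (2.67 ± 0.14, adjusted p = 2.56e-18). It was 1.24-fold lower at day 6 than at day 2 (adjusted p = 0.0342) and still 5.10-fold above day 0 (adjusted p = 6.43e-17). Hlf, the third PAR bZIP gene, had a median of 0 CPM at day 0 and 0.447 CPM at day 6. The E-box repressors Bhlhe40 and Bhlhe41 fell 2.05-fold and 3.30-fold at day 2 and rose 8.34-fold and 5.11-fold from day 2 to day 6. Of the output genes, Noct (nocturnin) rose 10.2-fold at day 2 and Nampt, the enzyme of NAD salvage, 2.92-fold. Wee1, the remaining output gene, fell 1.43-fold at day 2 (adjusted p = 6.54e-07).

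Genes known to respond to the hormones of the medium also changed. Of 6 glucocorticoid response genes, 5 were higher at day 2 than at day 0 and none was lower (35.8% of all genes were higher). From day 2 to day 6, after dexamethasone was withdrawn, 3 were lower and 1 higher (30.1% and 31.9% of all genes). Within clone 48 alone, 4 were higher and 1 lower at day 2, where 65.3% of all genes were called. In this change 3 of the 6 differed between clones (6.84% of all genes). Dusp1 went from a mean of 13.2 to 5.35 CPM in clone 48 and from 15.05 to 20.3 CPM in clone 66. The mean level of Sgk1, a kinase, went from 66.9 to 65.7 CPM in clone 48 and from 71.3 to 344 CPM in clone 66. That of Klf9 went from 42.3 to 105 CPM in clone 48 and from 32.1 to 142 CPM in clone 66. Fkbp5, a chaperone of the glucocorticoid receptor, had 23.7 to 51.7 CPM at day 0. Fkbp5 rose in both clones at day 2, to 420 to 535 CPM in clone 48 and 691 to 958 CPM in clone 66. All libraries of day 6 had 32.8 to 45.5 CPM. Of 6 cyclic AMP response genes, 3 were higher and 2 lower at day 2 (35.8% and 37.5% of all genes). Among them Nr4a3 was 6.06-fold higher and Nr4a1 3.89-fold lower. The part of these agents in the changes of the members was not tested. All libraries of a day had the same medium, so the agents cannot be told apart from the day.

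The comparison of genotypes asked whether serine 22 of RXRα affects gene expression. No member differed between RxraSA and RxraWT on any day, and no gene of the 16723 did (0% of all genes). None of the 10 members reached an unadjusted p of 0.05 on any day, and DESeq2 also called 0. The members had a median log2 difference of -0.04 (day 0), 0.01 (day 2) and -0.04 (day 6). Over all genes, 139, 162 and 125 had an unadjusted p under 0.05 on these days. The largest single differences were -0.14 for Nr1d1 at day 0 (interval from -0.75 to 0.47), 0.11 for Clock at day 2 (-0.21 to 0.43) and -0.18 for Per2 at day 6 (-0.61 to 0.25). Per2 at day 6 was lower with RxraSA in 6 of 6 same-numbered pairs, and its difference with the replicate block did not pass the test either. Per2 was picked here for the largest difference of that day, so the count of pairs is not separate support. The narrowest intervals were those of Tef, from -0.21 to 0.23 at day 0 and from -0.24 to 0.21 at day 6. Dbp, with the largest change over time, had 4.31 to 7.60 CPM with RxraWT and 4.12 to 6.06 CPM with RxraSA at day 2, and its genotype difference of -0.07 had an interval from -0.32 to 0.19.

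**Figure D3:**
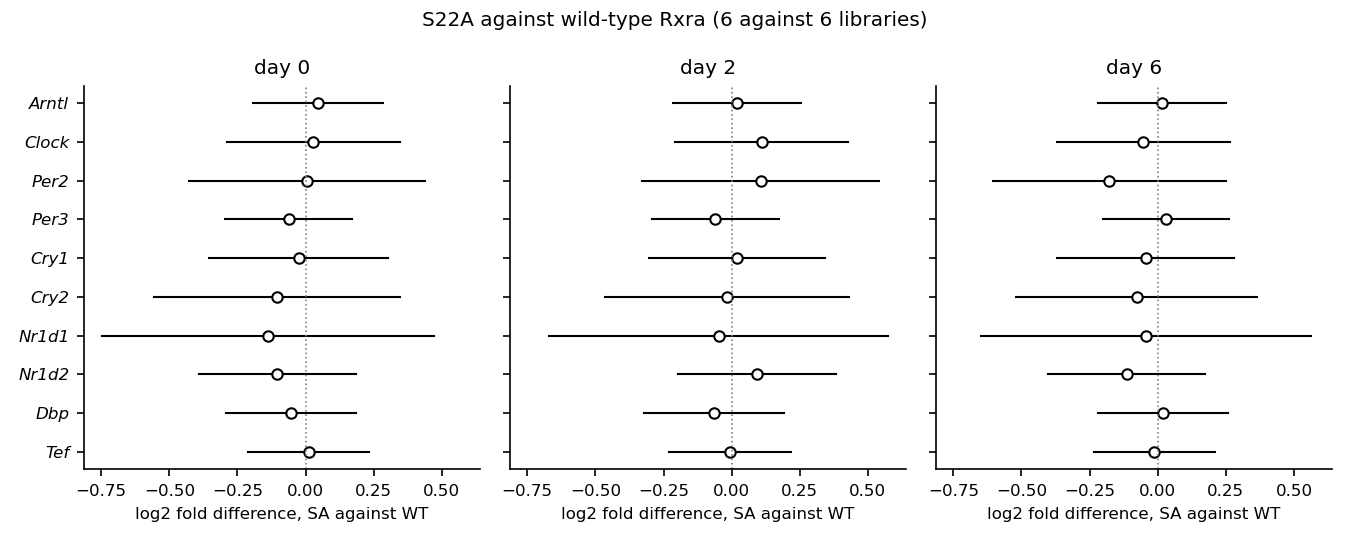
Log2 fold difference of each clock gene in RxraSA against RxraWT cells (horizontal axis) at each day, from edgeR's quasi-likelihood fit. Points are estimates and bars 95% intervals, and no point is filled, as none had an adjusted p under 0.05. The intervals of all 10 members cross 0 on all 3 days and are widest for Nr1d1.

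Genotype by time terms were small as well, with 0 members and 0% of all genes called for each pair of days, 0 members at an unadjusted p under 0.05, and 0 by DESeq2. The clones did not differ detectably in the effect of genotype on any day (0 members, 0% of all genes, 0 members at an unadjusted p under 0.05, 0 by DESeq2).

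Between clones, few members differed. Dbp was lower in clone 66 at day 0, where 23.7% of all genes were called, with 15.2 to 19.8 CPM in the 6 libraries of clone 66 and 20.1 to 24.6 CPM in the 6 of clone 48. The ranges did not overlap, and the difference was -0.32 ± 0.11 (adjusted p = 0.0313). At day 2, where 30% of all genes were called, Dbp was again lower in clone 66 (-0.34 ± 0.12, adjusted p = 0.0283), with 4.12 to 5.26 against 5.32 to 7.60 CPM. Cry1 was also lower in clone 66 at day 2, at 31.4 to 51.2 CPM against 46.8 to 70.7 (-0.51 ± 0.15, adjusted p = 0.0123). At day 6 no member was called (26.2% of all genes; 1 member, Nr1d2, at an unadjusted p under 0.05; 0 by DESeq2), and Dbp had 24.1 to 29.7 CPM in clone 66 and 19.6 to 32.0 in clone 48.

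The Dbp calls between clones were near the threshold, and the size of the difference moved little without 1 library, from -0.33 to -0.29 at day 0 and from -0.34 to -0.24 at day 2 where the call was lost. At day 0 Dbp did not pass without replicate 2 of either genotype of clone 48 or replicate 3 of either genotype of clone 66 (adjusted p from 0.0519 to 0.0795). At day 2 it did not pass without replicate 2 or 3 of RxraSA or replicate 2 of RxraWT of clone 48, replicate 1 of RxraSA, or replicate 1 or 3 of RxraWT of clone 66 (adjusted p from 0.0533 to 0.148), nor with DESeq2 (adjusted p = 0.0523) or no filter (0.245, and 0.199 at day 0).

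The changes over time were also fitted within each clone. Within clone 48, 7 members differed between days 0 and 2 (65.3% of all genes), 6 between days 0 and 6 (56.3%) and 4 between days 2 and 6 (51.1%). Within clone 66 these counts were 7 (61.6%), 7 (57.7%) and 7 (50.5%). Dbp fell by 1.91 in clone 48 and by 1.93 in clone 66 at day 2, and rose by 2.06 and 2.48 to day 6. A direct test of the difference between clones in these changes called 0 members for each pair of days, beside 6.84%, 3.85% and 6.18% of all genes. With the replicate block it called 1, 2 and 2 members, beside 2248, 1369 and 2082 of the 16723 genes. Without the block, 0, 2 and 3 members had an unadjusted p under 0.05, beside 3077, 2325 and 3027 of all genes.

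Nr1d2 came closest. From day 2 to day 6 it went from between 48.3 and 53.5 to between 52.3 and 56.3 CPM in clone 48, and from between 32.9 and 47.1 to between 54.3 and 83.0 CPM in clone 66. Its changes were 0.12 and 0.70, and their difference of 0.58 ± 0.18 did not pass (adjusted p = 0.0526). It passed with DESeq2 (adjusted p = 0.0412), with library size alone (0.0437), with the replicate block (0.0064) and without any 1 of 10 libraries (0.0141 to 0.0486). Per2 between days 0 and 2 was -0.29 in clone 48 and 0.29 in clone 66, neither past the test, with a difference of 0.59 ± 0.30 (adjusted p = 0.30). With the replicate block this difference passed (0.63, adjusted p = 0.0154).

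Replicates of 1 clone, genotype and day differed more for some members than for others. The pooled SD of log2 CPM within the 12 groups was 0.579 for Nr1d1, larger than for 91.2% of all genes tested, 0.420 for Cry2 and 0.375 for Per2. It was 0.176 for Dbp and 0.191 for Arntl. The median was 0.250 over the members and 0.316 over all genes tested. Among the 1055 genes within 0.5 log2 units of the average level of Nr1d1, 90.7% had a smaller SD.

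For Nr1d1 these differences followed the replicate number at days 2 and 6. In clone 48 at day 2, Nr1d1 had 2.41, 2.69 and 8.12 CPM in replicates 1, 2 and 3 of RxraWT and 2.47, 3.40 and 6.45 CPM in those of RxraSA. In clone 66 at day 2 the values were 1.79, 3.93 and 5.78 CPM with RxraWT and 2.60, 3.41 and 5.54 CPM with RxraSA. Replicate 3 was thus the highest in all 4 lines at day 2, and the same held at day 6 except for RxraSA of clone 66, where replicate 2 (7.11 CPM) exceeded replicate 3 (6.82 CPM). At day 0 Nr1d1 had no such order. Its replicate 3 was the lowest with RxraWT of clone 48 (5.38, 5.39 and 4.17 CPM) and the highest with RxraSA of clone 48 (3.65, 3.21 and 5.52 CPM). For Nr1d2, Cry1 and Per2, replicate 3 was the highest in all 4 lines at day 0. Nr1d2 then had 96.8 to 108 CPM in replicate 3 and 57.7 to 94.9 CPM in the others. The remaining members did not have replicate 3 highest in all 4 lines at day 0. Cry2 at day 6 had 44.1 and 35.5 CPM in replicate 3 of clone 48 and 18.3 to 24.2 CPM in its other replicates. Same-numbered libraries of the 2 genotypes differed by a mean of 0.293 log2 units for Nr1d1. Differently numbered libraries of 1 clone, genotype and day differed by 0.693. For Tef these values were 0.0672 and 0.233.

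The ratio of Nr1d1 to Arntl, a repressor and its target, was taken within each library and so does not depend on scaling. Its log2 value ranged from -2.16 to -0.73 at day 0 (median -1.30), from -3.56 to -1.45 at day 2 (median -2.34) and from -2.85 to -1.37 at day 6 (median -2.29). At day 2 the 4 libraries numbered 1 had a mean of -3.25 ± 0.256 (SD, n = 4), those numbered 2 had -2.36 ± 0.277 and those numbered 3 had -1.69 ± 0.203. These 3 sets did not overlap at day 2, and at day 6 those numbered 3 (-1.72 to -1.37) lay apart from the rest.

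**Figure D4:**
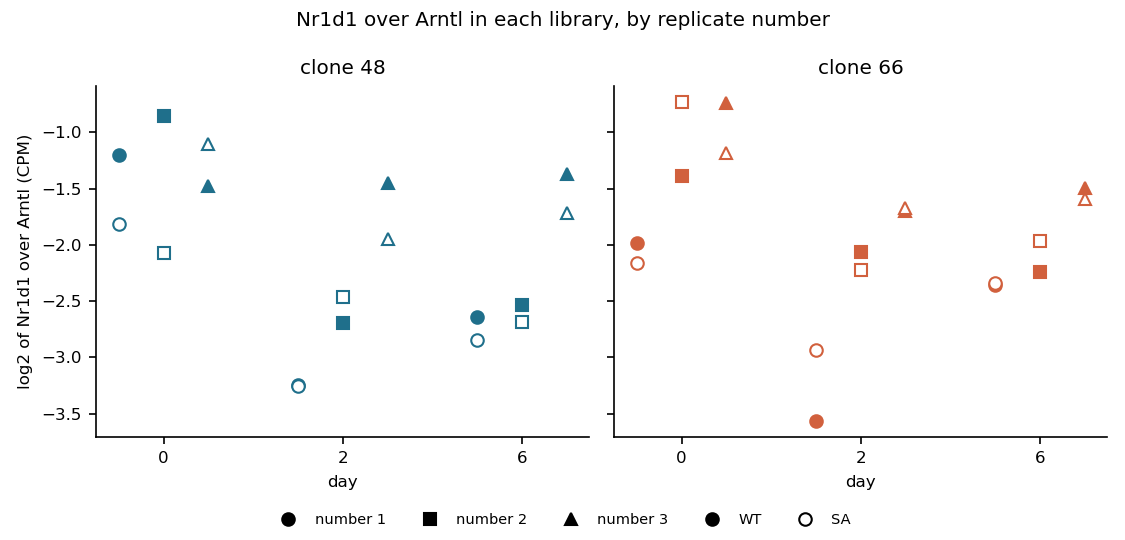
Log2 of the Nr1d1 level over the Arntl level (both in CPM, vertical axis) in each library by day, for clone 48 and clone 66. Symbols give the replicate number and filled or open the genotype (RxraWT or RxraSA). At day 2 the libraries numbered 3 are highest (-1.95 to -1.45) and those numbered 1 lowest (-3.56 to -2.94) in both clones.

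Some pairs of members deviated together across libraries and others apart. Of the 45 pairs, 22 had a positive and 23 a negative correlation (median -0.04), with 9 above 0.5 and 4 below -0.5. Over 36 libraries, the correlation of deviations of log2 CPM from the group mean was 0.952 between Cry2 and Nr1d1, 0.838 between Per2 and Cry2 and 0.799 between Per2 and Nr1d1. Cry1 and Nr1d2 had a correlation of 0.806, and the partners Arntl and Clock one of 0.635. Clock and Dbp had the lowest of the 45 values, -0.654, and Arntl and Nr1d1 had -0.168. These are descriptions, and the points share replicate numbers, depth and base composition.

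The libraries also varied in base composition. Within a library, the correlation across 9381 genes between a gene's deviation and the GC content of its longest transcript ranged from -0.586 to 0.449. Both extremes were in clone 48 at day 2 with RxraWT, at -0.586 in replicate 1 and 0.449 in replicate 3. Over the 36 libraries this value had a correlation of 0.846 with the deviations of Cry2 (55.6% GC), 0.799 with those of Nr1d1 (56.8%) and 0.712 with those of Per2 (54.3%), and of -0.765 with those of Clock (40.9%). For Dbp, with the highest GC of the members (61.6%), it was 0.562, and for Nr1d2 (41.8%) 0.243. The part of GC content in the deviations of the members was not tested.

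**Figure D5:**
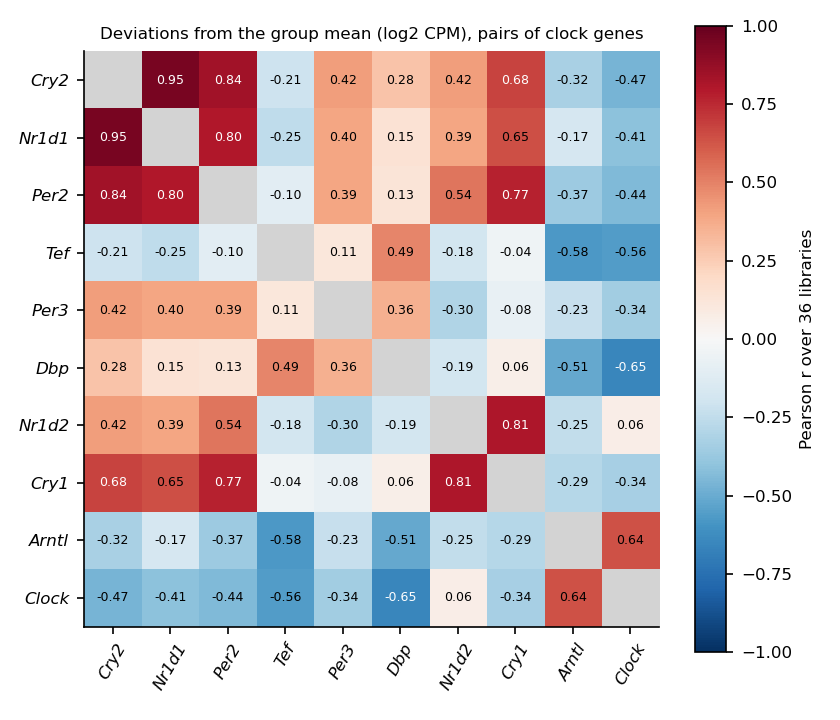
Pearson correlation (colour from -1 to 1, and number) between pairs of clock genes of their deviations in log2 CPM from their group mean (a group is 1 clone and genotype on 1 day), over 36 libraries. Cry2, Nr1d1 and Per2 form a block of positive values up to 0.95, and Cry1, drawn further along, has 0.65 to 0.77 with them. Nr1d2 is closest to Cry1 (0.81), and Arntl and Clock (0.64) stand apart from these genes.

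Among 10851 genes compared, those whose deviations were most like Nr1d1 were Cpt1a (0.968), Mcur1 (0.959), Cry2 (0.952), Fam53c (0.949) and Med16 (0.949), and those least like it Zfp207 (-0.954), Timm21 and Xrcc4 (both -0.951). For Per2 they were Fhod1 (0.914), Klc2 (0.906), Tnfrsf10b (0.905), Cdk18 and Gnai2 (both 0.896), with Colec12 (-0.912), Mterf2 (-0.897) and Adal (-0.893) at the other end. For Arntl the highest were Gm49085 (0.766), Lonrf3 (0.692), Mbnl1 and Pigg (both 0.68) and Magi3 (0.676), and the lowest Sh3bgrl3 (-0.696), Ptges (-0.67) and Copz2 (-0.654). For Dbp they were B4galt3 (0.746), Mkrn1 (0.721), Pex26 (0.717), Pdcd7 (0.708) and Grik5 (0.7), and at the other end Far1 (-0.738), Cul5 (-0.711) and Rps6kb1 (-0.705). Clock ranked 15th of 10851 for Arntl, and Tef 253rd for Dbp. These values are over 36 libraries that share replicate number, depth and base composition, and say nothing of shared control.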

How the data were processed

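RNA sequencing counts of 36 libraries were analysed. Per the labels and methods, libraries came from a stranded kit, and the authors used STAR 2.7.0d for alignment to mm10 and counted read pairs on GENCODE M21 exons with featureCounts 1.6.2; they deposited raw counts per gene, without normalization. Counting used no strand and dropped pairs that fell in more than 1 gene, which affects members with overlapping exons. The series text calls the 3 replicates technical and the methods call them independent, so p-values may measure only spread between libraries. No replicate pair was a duplicate (chi-square per degree of freedom 12 to 188).

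Counts were filtered with filterByExpr, scaled by TMM and tested with edgeR 4.0.16 (quasi-likelihood, legacy form, R 4.3.3), with 6 genotype-by-day terms and 1 clone term. Clones were compared in a fit with 12 terms, 1 for each clone, genotype and day. Genes with a Benjamini-Hochberg adjusted p under 0.05 over 16723 genes were called. Levels are TMM-scaled CPM; deviations are on log2 CPM (prior count 2). The authors' methods name edgeR 3.24.3 and the same model. Intervals are 95%. The fits were tested on simulated counts. Alternatives were RLE and library-size scaling, other filters, DESeq2 1.42.0, edgeR's version 4 test, the replicate block, other sample sets, and each library left out.

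Same-numbered RxraWT and RxraSA libraries deviated together (r from 0.176 to 0.93 over 18 pairs, mean 0.71, 9381 genes), so the numbers were read as pairs. At day 0 the pairing was less clear. There r was 0.432, 0.176 and 0.359 for replicates 1, 2 and 3 of clone 48 and 0.921, 0.236 and 0.71 for those of clone 66. Across days the same number had r from 0.0625 to 0.893 (mean 0.464). Named genes were all members, the pathway and hormone lists, genes with overlapping exons and, for Arntl, Nr1d1, Dbp and Per2, the 5 most and 3 least similar genes. Members and lists were chosen with earlier results of these data known.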

Additional observations from a re-analysis of the deposited data

How the results depend on the processing

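No member value changed direction where it was called in either setting. The count of members called between days lay between 7 and 8 (days 0 and 2), 5 and 9 (days 0 and 6) and 7 and 9 (days 2 and 6) over 46 alternatives each; the 5 came from library size alone. Over 322 alternative counts of the genotype comparisons, 0 members were called in each. Among 8010 single member values, 95 crossed the threshold and 444 changed sign without being called.

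With the replicate block, 1 member (Per2, 0.63, adjusted p = 0.0154) differed between clones in the change from day 0 to day 2, 2 members (Per2, 0.65, 0.0171; Nr1d2, 0.47, 0.0352) from day 0 to day 6, and 2 (Nr1d2, 0.58, 0.0064; Cry1, 0.52, 0.00953) from day 2 to day 6, where none was called without it. Over all 16723 genes the block called 2248, 1369 and 2082 in these comparisons. The block also called Arntl (0.18, adjusted p = 0.0484) and Nr1d1 (0.43, 0.00507) between days 2 and 6, and changed no other call of a member. It called 0 members between genotypes. Arntl between days 2 and 6 also passed with RLE (0.0308), library size alone (0.0136) and DESeq2 (0.022).

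Between clones, no filter gave 0 members at day 0 and 1 at day 2, and DESeq2 gave 1 at day 2. Library size alone and DESeq2 each called 1 member (Nr1d2) for the difference between clones from day 2 to day 6. With 1 library left out, counts of members lay between 0 and 1 (clones, day 0), 1 and 3 (day 2), 0 and 1 (day 6), and for the clone difference in change between 0 and 1 (days 0 and 6) and 0 and 2 (days 2 and 6). Nr1d1 passed between days 2 and 6 without replicate 3 of RxraWT (0.54, adjusted p = 0.0195) or RxraSA (0.50, 0.0466) of clone 48 at day 2. Clock passed between days 0 and 6 without 1 of 15 libraries (adjusted p from 0.00983 to 0.0494) and Arntl between days 2 and 6 without 1 of 15 (0.0109 to 0.0493). CPM per total count gave a mean of 149 for Clock and 177 for Tef at day 0, beside 135 and 160 with TMM. Without 1 library, these also passed between clones: Per2 at day 0 (RxraWT replicate 3 of clone 66 left out, adjusted p = 0.0412), Clock at day 2 and in its change from day 2 to day 6 (RxraWT replicate 1 of clone 48 at day 2, 0.0233 and 0.0468), Nr1d2 at day 2 (RxraWT replicate 2 of clone 66, 0.0445, and also with library size alone, 0.0329) and at day 6 (RxraWT replicate 1 of clone 66, 0.021), and Dbp in its changes to day 6 from days 0 and 2 (RxraWT replicate 3 of clone 48 at day 6, 0.038 and 0.027). The pathway list, put through the same alternatives after seeing the data, had 17 to 18, 17 to 18 and 15 to 16 genes called between days with 1 library left out. The cause of these shifts was not tested.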
